A study of Mus musculus with 12 samples.

Results

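BALB/cJ and BALB/cByJ are sublines of one inbred mouse strain that have been bred apart for decades. The comparison described here is the difference of their responses to immunization: immunized minus naïve spleen in BALB/cByJ, minus the same quantity in BALB/cJ. A positive value means that the response lay higher in BALB/cByJ, and a negative value that it lay lower there. It was computed for all 45037 of the 45101 deposited probe sets that are not array controls, on all 12 arrays, and 34945 of these probe sets name a single gene, for 18193 genes.

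Each of the 4 groups held 3 arrays, each from the spleen of a different mouse per the labels: naïve BALB/cJ, immunized BALB/cJ, naïve BALB/cByJ and immunized BALB/cByJ. All mice were female wild-type BALB/c, and their age is not given in the labels. The immunized mice had received 1 intraperitoneal injection of cartilage proteoglycan (PG), 100 µg of protein, in 2 mg of the adjuvant dimethyldioctadecyl-ammonium bromide (DDA), and the naïve mice were left untreated, so that antigen and adjuvant cannot be told apart. Spleens of the immunized mice were taken 12 days after the injection, before arthritis, and all spleens were measured on Affymetrix mouse genome arrays.

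PG with DDA is the antigen of a mouse model of rheumatoid arthritis that depends on T cells and antibody. In the days after an injection, B cells that meet antigen in the spleen form germinal centres, in which they divide, mutate their antibody genes and are selected by follicular helper T cells. The spleen of a mouse is also a site of blood formation, so that red cell precursors and granulocytes can change along with the lymphocytes. In a bulk sample, more cells of a type and more RNA per cell cannot be told apart.

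The values are log2 signals relative to the median array for each probe set, so the level of a gene, and with it the presence of spleen markers, cannot be read from them. Array numbers in the labels fell into runs: 10 to 15 for the naïve mice, 29, 31 and 33 for immunized BALB/cByJ 1 and 2 and BALB/cJ 1, and 48 to 50 for immunized BALB/cByJ 3 and BALB/cJ 2 and 3. Within the naïve run, 10 to 12 were BALB/cByJ and 13 to 15 BALB/cJ, so number order and colony cannot be told apart there. The labels do not call these runs batches, and naïve and immunized mice share none. Some arrays stood apart by genes of other tissues: pancreas genes were highest in naïve BALB/cByJ 1, with a list median of 1.94, and pigment cell genes such as Dct were high in naïve BALB/cJ 1 and 2, immunized BALB/cJ 1 and immunized BALB/cByJ 2. The 4 arrays high in pancreas or heat shock genes were naïve BALB/cByJ 1 and all arrays of 48 to 50. A fit without them leaves immunized BALB/cJ with 1 array, and a fit without the 4 high in pigment genes leaves naïve BALB/cJ with 1 array.

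No probe set showed a difference of responses past the test. With limma's moderated test, 0 of 45037 (0.0%) had a Benjamini-Hochberg adjusted p under 0.05, and the lowest adjusted p was 0.198, shared by Neil1 and Cep55. At an unadjusted p under 0.05 there were 3417 probe sets (7.59%), of which 2023 (4.49%) were higher and 1394 (3.1%) lower in BALB/cByJ. A limma fit with the median of each array subtracted, an unmoderated analysis of the same design and a fit at gene level also called 0. Other settings called some: 2 after quantile normalization again, 6 with the run of sample numbers as a term, and up to 10 when 1 array was left out, without immunized BALB/cJ 1. The median standard error was 0.15, and the 5th and 95th percentiles of the difference were -0.34 and 0.31. Past 2-fold there were 158 probe sets (0.351%), 48 of them (0.107%) higher and 110 (0.244%) lower. Of these 110, 103 (93.6%) had their larger gap between colonies in the naïve mice, against 59.7% of all probe sets and 33 of the 48 (68.8%) that were higher. In 400 probe sets (0.888%) the immunized arrays lay apart from the naïve ones in opposite directions in the colonies.

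**Figure D1:**
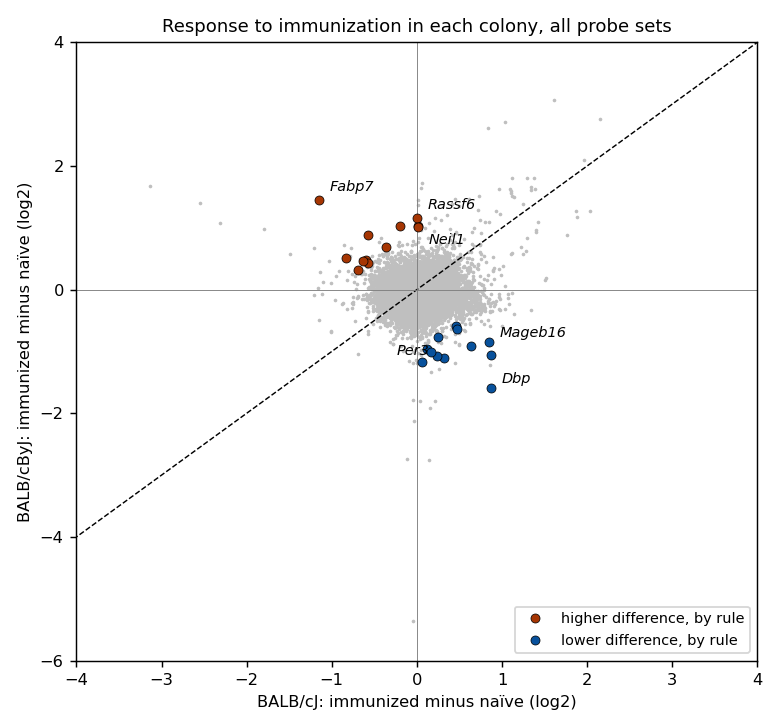
Response to immunization (immunized minus naïve group mean, log2) in BALB/cJ on the horizontal axis and in BALB/cByJ on the vertical axis, for all 45037 probe sets (grey), with the 12 genes named in each direction in colour and the line of equal responses dashed. The named genes lie to both sides of the line, most of them with responses of opposite sign in the colonies, as for Fabp7 at -1.15 in BALB/cJ and 1.45 in BALB/cByJ.

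The genes with the smallest p included several that germinal centre B cells express. In the list of germinal centre genes, 11 of 14 had probe sets of their own, and 8 of these 11 were higher in BALB/cByJ at an unadjusted p under 0.05, 0 lower and 0 called. Over all 18193 genes, 8.68% reached that level, 5.49% higher and 3.19% lower, and 52.8% of the differences were above 0. Their median difference was 0.38, against 0.01 over all genes. It came from a median response of 0.13 in BALB/cJ and 0.40 in BALB/cByJ. The 8 were Rgs13, Mef2b, Gcsam, Mybl1, S1pr2, Efnb1, Fas and Bcl6, with differences of 1.46 down to 0.27 as means over each gene's probe sets. Lmo2, at -0.19, and Tnfsf8, at -0.07, lay below 0.

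Rgs13, a regulator of G protein signalling that is enriched in germinal centre B cells, had the largest of these differences. Its values were -0.64, -1.14 and -0.40 in naïve BALB/cJ, 0.25, 1.08 and 1.32 in immunized BALB/cJ, -0.25, -1.22 and -1.08 in naïve BALB/cByJ, and 2.32, 1.76 and 2.57 in immunized BALB/cByJ. The immunized arrays lay above the naïve ones in both colonies, a pattern that was not counted over all probe sets. The 3 immunized BALB/cByJ arrays lay above the 3 immunized BALB/cJ arrays, as in 8.14% of all probe sets. The responses were 1.61 and 3.07, with a difference of 1.46 ± 0.45 (SE, n = 3 arrays in each of the 4 groups, limma adjusted p = 0.517).

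S1pr2, the sphingosine phosphate receptor that keeps B cells within the germinal centre, held -0.23, -0.11 and -0.18 in naïve and 0.22, 0.11 and 0.23 in immunized BALB/cJ, and -0.44, -0.35 and -0.27 in naïve and 0.77, 0.66 and 1.14 in immunized BALB/cByJ. Both colonies moved the same way, and the response was 0.36 in BALB/cJ and 1.21 in BALB/cByJ, a difference of 0.85 ± 0.15 (limma adjusted p = 0.356). A second S1pr2 probe set had a difference of 0.20 ± 0.15 (limma adjusted p = 0.785). Values per array and differences with a standard error are those of the probe set with the smallest p, and other probe sets of a gene often lay closer to 0. Unless a probe set is named, differences of list members without a standard error are means over each gene's probe sets. Gcsam, an adaptor that marks germinal centre B cells, stood between -0.11 and 0.08 on all 6 BALB/cJ arrays. In BALB/cByJ it was at -0.22, -0.37 and -0.47 before and 0.49, 0.27 and 0.48 after immunization, and its difference was 0.75 ± 0.13 (limma adjusted p = 0.356). Mef2b, a transcription factor upstream of Bcl6 in germinal centre B cells, was at 0.96, 0.70 and 1.39 in immunized BALB/cByJ and no higher than 0.16 on any BALB/cJ array, with a difference of 0.83 ± 0.20 (limma adjusted p = 0.484).

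Neil1 and Cep55 had the smallest p of all 45037 probe sets. Neil1, a DNA glycosylase that starts base excision repair, held -0.00, -0.03 and 0.00 in naïve and -0.15, 0.13 and 0.03 in immunized BALB/cJ. In BALB/cByJ the same probe set held -0.09, -0.28 and -0.28 in naïve and 0.85, 0.65 and 0.94 in immunized mice. The BALB/cJ groups overlapped and the BALB/cByJ groups did not, a pattern that was not counted over all probe sets. The response was 0.01 in BALB/cJ and 1.03 in BALB/cByJ, and the difference was 1.01 ± 0.14 (95% interval 0.71 to 1.31, unadjusted p = 7.06e-06, limma adjusted p = 0.198). Cep55, a midbody protein required for the last step of cell division, showed responses of 0.14 and 1.08 and a difference of 0.94 ± 0.13 (limma adjusted p = 0.198), with 0.48 ± 0.21 in its second probe set.

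Rassf6, Eaf2 and Cilp also had responses near 0 in BALB/cJ. Rassf6, a Ras association domain protein, was between -0.20 and 0.14 on the 6 BALB/cJ arrays, at -0.48, -0.51 and -0.52 in naïve BALB/cByJ, and at 0.87, 0.27 and 0.82 in immunized BALB/cByJ, a difference of 1.16 ± 0.20 (limma adjusted p = 0.356). Eaf2, an elongation factor partner expressed in germinal centre B cells, had a difference of 1.01 ± 0.22. Cilp, a cartilage matrix protein, lay between -0.13 and 0.04 on all 6 BALB/cJ and all 3 naïve BALB/cByJ arrays and at 0.64, 0.42 and 0.70 in the immunized BALB/cByJ mice. A probe set without a gene name differed from these in having a response in both colonies: it was at -0.37, -0.26 and -0.28 in naïve and 0.12, 0.69 and 0.78 in immunized BALB/cJ, and at -0.12, -0.74 and -0.32 in naïve and 2.32, 1.64 and 2.69 in immunized BALB/cByJ. Its responses were 0.84 and 2.61, and the difference was 1.78 ± 0.34. Cilp and the probe set without a name were chosen after their values were seen.

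**Figure D2:**
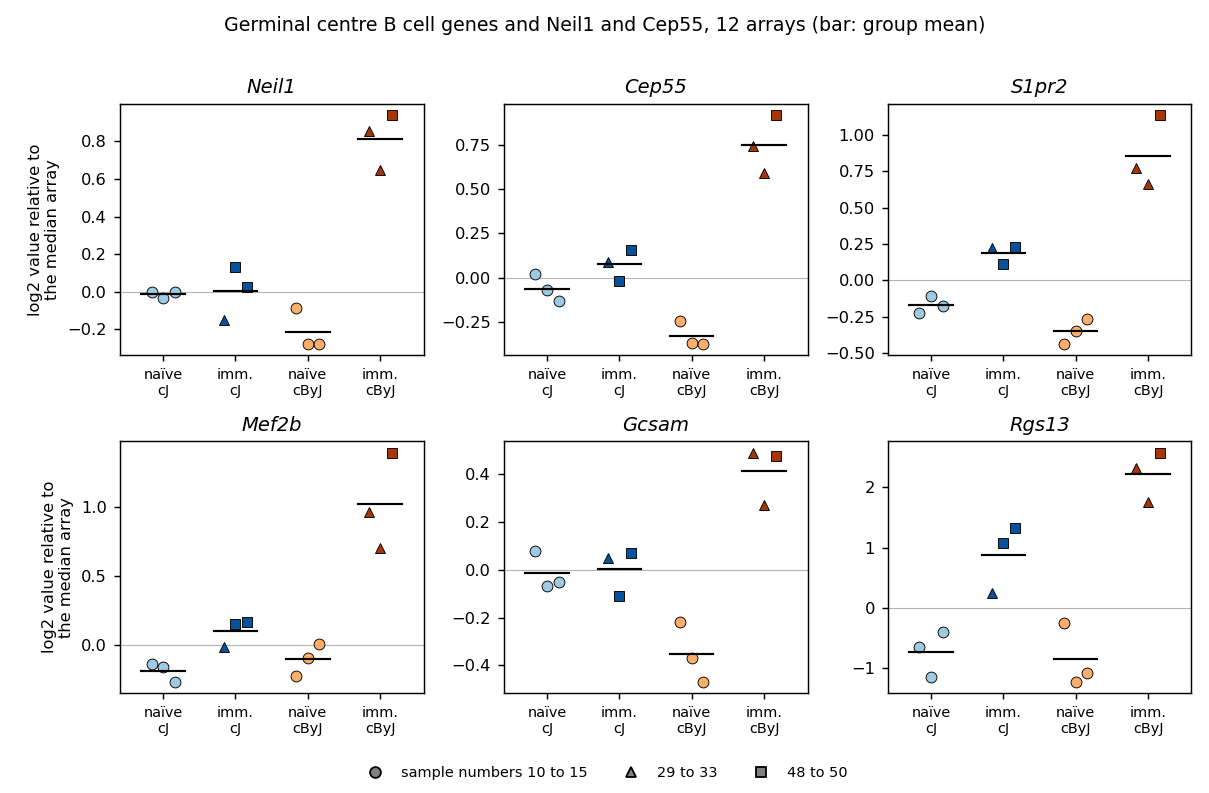
Values of Neil1, Cep55, S1pr2, Mef2b, Gcsam and Rgs13 on each of the 12 arrays (log2, relative to the median array), by group, with the group mean as a bar and the run of sample numbers as the symbol. In each panel the 3 immunized BALB/cByJ points lie above the 3 immunized BALB/cJ points, as for Neil1 at 0.65 to 0.94 against -0.15 to 0.13. Of all probe sets, 8.14% show this separation, and each panel shows the gene's probe set with the smallest p.

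The direction of these germinal centre genes did not depend on 1 library. Under the 27 alternatives with a value the median of the list lay between 0.30 and 0.46. Within the run of numbers 29 to 33, Neil1 remained positive, as it did in each of its alternatives (0.94 to 1.17), and its adjusted p was 0.0356 when the run was a term of the limma fit, in which 6 probe sets passed. Tfh and helper genes were less uniform. Of 15 measured, 2 were higher at an unadjusted p under 0.05, against 5.49% of all genes: Foxp3 at 0.43 and Ctla4 at 0.45. Il21, the cytokine of follicular helper cells, was at -0.23. Pdcd1, the PD-1 receptor, was at 0.70 and did not reach an unadjusted p under 0.05.

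B cell and plasma cell genes mostly had differences above 0 as well, with smaller values. Among 15 B cell genes the median was 0.15. Blk, Spib, Cd22 and Fcer2a were higher at an unadjusted p under 0.05, between 0.27 and 0.36, against 5.49% of all genes. The median response of the B cell list was -0.12 in BALB/cJ and 0.01 in BALB/cByJ. In immunized mice its median gap between the colonies (BALB/cByJ minus BALB/cJ) was -0.11. For plasma cells and secretion 14 of 16 genes lay above 0, with a median of 0.20, where 52.8% of all genes lay above 0. The median response of the plasma cell list was 0.10 in BALB/cJ and 0.30 in BALB/cByJ, and its gap in immunized mice -0.04. Sdc1, which marks plasma cells, was at 0.31, and Mzb1, a chaperone of antibody assembly, at 0.32. Among the 5 measured immunoglobulin genes, some probe sets varied widely between arrays. The Ighm probe set with the smallest p was at 1.04, -1.78 and -1.76 in naïve BALB/cByJ, so its difference of 1.60 carried an interval from -0.37 to 3.58. The T cell list had 12 of 12 measured genes above 0, 4 of them at an unadjusted p under 0.05 (Cd5, Thy1, Cd3g and Cd6, between 0.37 and 0.43), and a median of 0.33. This median was 0.14 without immunized BALB/cJ 1, in which T cell genes were low. The median response of the T cell list was -0.09 in BALB/cJ and 0.21 in BALB/cByJ.

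Cytokine genes, the subject of many measurements in this model, were mostly close to 0. Il1b, the inflammatory interleukin-1β, was at 0.46, 0.28 and 0.05 in naïve and 0.15, -0.16 and 0.41 in immunized BALB/cJ, and at -0.38, -0.43 and -0.52 in naïve and -0.05, -0.07 and 0.30 in immunized BALB/cByJ. Its difference of 0.64 ± 0.21 did not pass (limma adjusted p = 0.54). Il4 was at 0.30, with an interval from -0.12 to 0.72. Il2, Il6 and Tnf had differences of 0.11, 0.04 and 0.13, and Ifng one of -0.22 with an interval from -0.77 to 0.34. Of 25 cytokine genes, Il1b and Lta (0.39) were higher at an unadjusted p under 0.05 (8.0%) and 0 lower. Among 23 chemokine genes only Ccl22, which attracts Th2 and regulatory T cells, passed that level, at 0.55 (4.35%). Over all genes 5.49% were higher at that level, so both shares lay near that of all genes. H2-Q6 and H2-Q8 have only probe sets that name several class I genes, and the 11 other class I genes with their own ranged from -0.06 to 0.22.

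Genes of the circadian clock lay on both sides, with the output genes lower. Clock and Arntl (BMAL1) drive the E-box genes, among them the Per and Cry repressors, the nuclear receptors Nr1d1 and Nr1d2, and Dbp, Tef and Hlf, which act through D-boxes. Of 18 clock genes measured, 8 were lower (Dbp, Hlf, Nr1d1, Per3, Nr1d2, Per2, Tef and Cry2) and 3 higher (Clock, Npas2 and Nfil3) at an unadjusted p under 0.05, with 0 called, where 3.19% of all genes were lower. This list was drawn up after the values were seen. Its median was -0.26.

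Dbp, a clock output factor, was at -0.33, -0.60 and -0.65 in naïve BALB/cJ and 1.36, 1.10 and 0.69 in naïve BALB/cByJ. In immunized BALB/cJ it was at -0.88, 0.88 and 1.04, and in immunized BALB/cByJ at -0.91, -1.06 and 0.33. The naïve colonies were apart, and the immunized arrays were split by their run of numbers rather than by colony: -0.88, -0.91 and -1.06 for arrays 29 to 33 and 0.88, 1.04 and 0.33 for arrays 48 to 50. The difference was -2.47 ± 0.64 (limma adjusted p = 0.491). With the run as a term it was -1.94, and its adjusted p 0.0424. What the runs stand for is not stated in the labels, and their part in these values was not tested.

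Per3, a period gene, was at -0.06, -0.11 and -0.13 in naïve BALB/cJ and at 1.16, 1.03 and 0.73 in naïve BALB/cByJ, and at -0.38, 0.50 and 0.55 and -0.14, -0.32 and 0.06 after immunization. Its difference was -1.43 ± 0.29 (limma adjusted p = 0.438), and its 6 probe sets ranged from -1.43 to -0.34. Without immunized BALB/cJ 1 it was -1.73, with an adjusted p of 0.0151. That fit leaves immunized BALB/cJ with numbers 49 and 50 only, so colony and run are more closely aligned in it. Per3 was not among the probe sets called with the run as a term. Hlf, at -1.93 ± 0.41, and Nr1d1, the receptor REV-ERBα, at -1.16 ± 0.34, also had their immunized arrays of 48 to 50 above those of 29 to 33. Arntl, which Nr1d1 represses, went the other way: 0.39 for the single BALB/cJ and 0.31 and 0.21 for the BALB/cByJ immunized arrays of numbers 29 to 33, and -0.32, -0.11 and -0.33 for those of 48 to 50. Nfil3, a repressor acting at D-boxes, differed from this in that the immunized arrays did not follow the run: it was at 0.21, -0.20 and 0.02 in BALB/cJ while the BALB/cByJ arrays held 0.22, 0.23 and 0.49, and its difference was 0.81 ± 0.16.

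**Figure D3:**
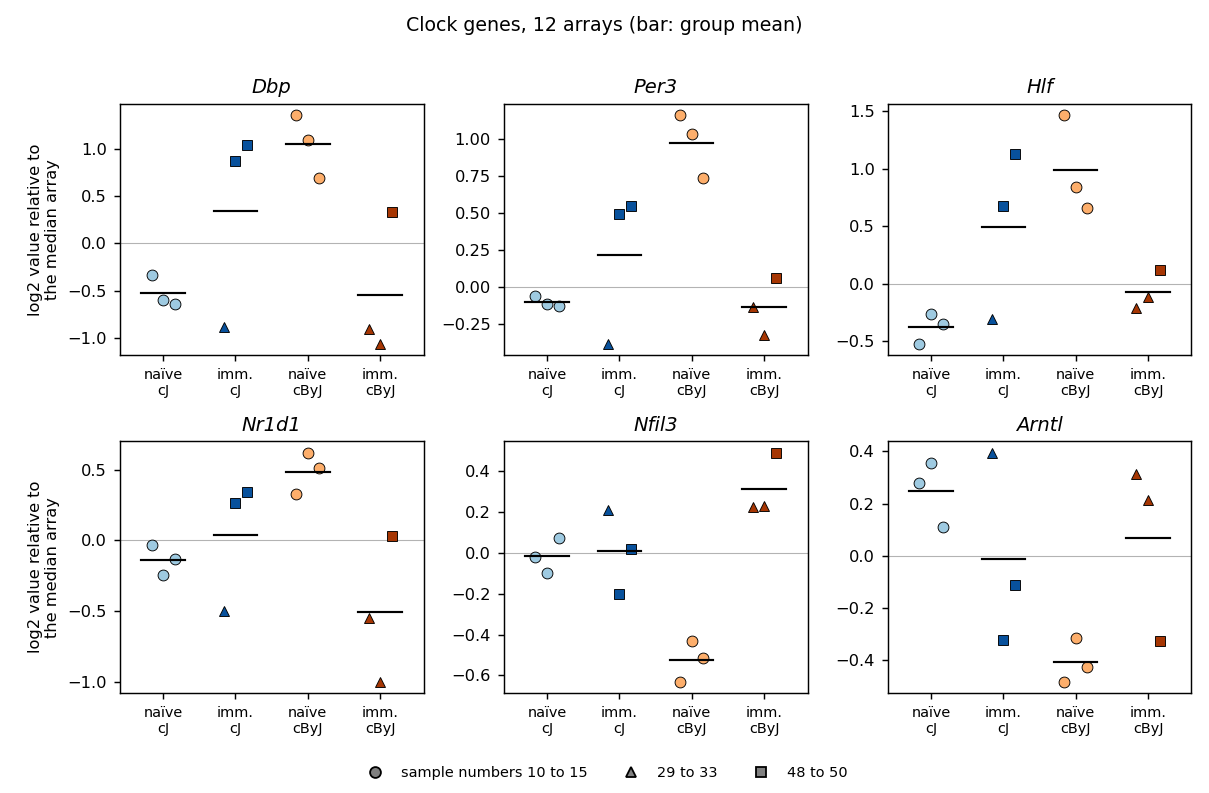
Values of Dbp, Per3, Hlf, Nr1d1, Nfil3 and Arntl on each of the 12 arrays (log2, relative to the median array), by group, with the group mean as a bar and the run of sample numbers as the symbol. Dbp in naïve BALB/cByJ lies between 0.69 and 1.36 and in naïve BALB/cJ between -0.65 and -0.33, and the triangles and squares of the immunized arrays separate in most panels.

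The upstream 250 bases of 3 of these genes are shown because the listed clock factors act through short motifs in promoters. Capitals mark the E-box (CACGTG) and the D-box (TTATGTAA or TTATGCAA), searched on both strands in the upstream 250 bases, where the motifs do not overlap each other. The sequences are of the GRCm38.p6 build of RefSeq, on the gene's own strand.
Per3 (chr4:151044666-151044915, minus strand): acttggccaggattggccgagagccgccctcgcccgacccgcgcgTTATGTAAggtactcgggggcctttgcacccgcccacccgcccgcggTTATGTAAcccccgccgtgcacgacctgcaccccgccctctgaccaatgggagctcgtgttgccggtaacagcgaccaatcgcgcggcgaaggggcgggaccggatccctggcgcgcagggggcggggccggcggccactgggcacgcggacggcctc
Tef (chr15:81802423-81802672, plus strand): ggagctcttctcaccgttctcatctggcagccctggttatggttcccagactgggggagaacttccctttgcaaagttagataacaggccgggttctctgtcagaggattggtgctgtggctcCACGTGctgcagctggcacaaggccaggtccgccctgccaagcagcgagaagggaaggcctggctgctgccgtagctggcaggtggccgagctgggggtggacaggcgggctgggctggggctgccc
Dbp (chr7:45704997-45705246, plus strand): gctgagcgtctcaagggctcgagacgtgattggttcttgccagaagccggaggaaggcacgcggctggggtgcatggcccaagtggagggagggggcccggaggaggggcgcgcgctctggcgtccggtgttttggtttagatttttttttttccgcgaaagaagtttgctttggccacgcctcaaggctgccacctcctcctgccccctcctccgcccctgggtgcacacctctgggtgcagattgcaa
Per3 held 2 D-boxes, Tef 1 E-box and Dbp no match in this window. Of 16 clock genes with a promoter in the table, 5 held an E-box and 2 a D-box in at least 1 window, where 6.86% and 1.79% of all 27025 genes in the table did. Counted by window, 6 of their 21 held an E-box and 2 a D-box, where 6.02% and 1.5% of all 32851 windows did. The E-box genes were Bhlhe41, Ciart, Cry1, Per1 and Tef, and the D-box genes Per1 and Per3. Of these, only Tef and Per3 were among the clock genes listed above as lower or higher. The match is to letters only, and these arrays did not measure binding.

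Genes of red cell precursors, DNA replication and mitosis lay mostly below 0, and 0 of them were called. Over all 18193 genes, 8584 lay below 0 and 3.19% were lower at an unadjusted p under 0.05. All 20 measured erythroid genes lay below 0, 9 at that level, with a median of -0.94. Of 25 replication and S phase genes, 25 lay below 0 and 14 were lower at that level, and of 23 mitosis genes 22 lay below 0 and 6 were lower, with medians of -0.40 and -0.59. Cep55, the single mitosis gene above 0, is described above. In all 3 lists the median response was above 0 in BALB/cJ and below 0 in BALB/cByJ: 0.66 and -0.23 for erythroid genes, 0.37 and -0.08 for S phase and 0.51 and -0.13 for mitosis.

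The erythroid, S phase and mitosis values moved together across arrays. The erythroid median ran from -1.33 to -0.26 over naïve BALB/cJ, from 0.15 to 0.65 over naïve BALB/cByJ, from -0.77 to 0.17 over immunized BALB/cJ, and from -0.11 to 0.47 over immunized BALB/cByJ. When the erythroid mean of each array entered the limma fit, the mitosis median was 0.01 and that of S phase -0.10. Erythroid values themselves differed between the groups, so this fit cannot separate the lists. It was chosen after the data were seen, and a link between the lists was not tested. Without the 4 pigment arrays, which hold naïve BALB/cJ 1 and 2, the erythroid median was -0.16, the mitosis median -0.12 and the S phase median -0.17. Rhag, the Rh-associated glycoprotein of red cells, was at -1.67, -1.94 and -0.56 in naïve BALB/cJ, 0.34 to 0.57 in naïve BALB/cByJ, -0.09, 0.17 and -1.13 in immunized BALB/cJ and -0.21, 0.09 and 0.57 in immunized BALB/cByJ, a difference of -1.36 ± 0.51 (limma adjusted p = 0.58).

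Car1, the carbonic anhydrase of erythroid precursors, was steadier. Its naïve BALB/cJ arrays were at -0.70, -0.83 and -0.57, and the other 9 lay between -0.20 and 0.52, for a difference of -0.89 ± 0.20 (limma adjusted p = 0.438). Ccne2, cyclin E2, was at -1.54 ± 0.48, Cenpe, a kinetochore motor, at -1.55 ± 0.42, and Bub1, a spindle checkpoint kinase, at -0.52 ± 0.12. The Bub1 naïve groups were at -0.44 to -0.32 in BALB/cJ and 0.30 to 0.48 in BALB/cByJ, and its immunized arrays at -0.09 to -0.04 and 0.04 to 0.30, so the colonies stayed apart after immunization with a smaller gap.

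**Figure D4:**
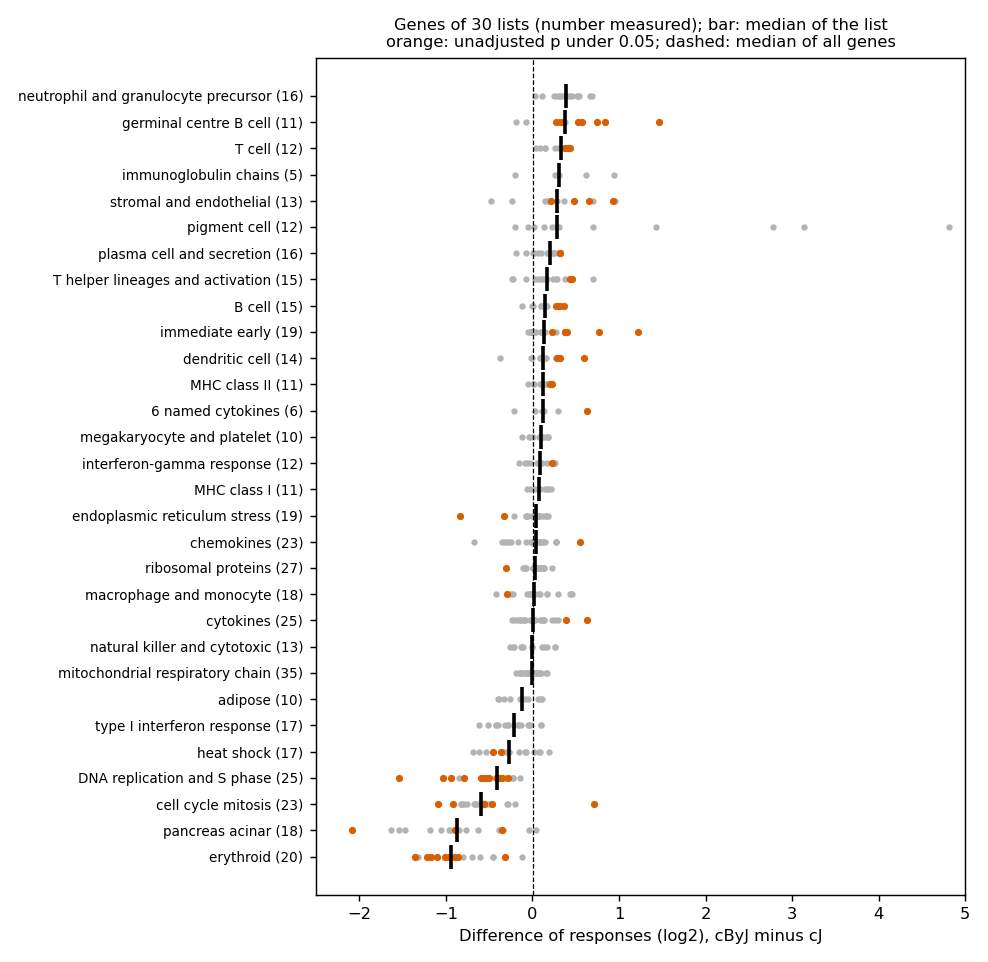
Difference of responses of each gene (log2, means of each gene's probe sets) in the 30 gene lists, with the median of the list as a bar and genes at an unadjusted p under 0.05 in orange. Neutrophil, germinal centre and T cell lists have the highest medians, 0.39, 0.38 and 0.33, and erythroid, pancreas and mitosis lists the lowest, -0.94, -0.87 and -0.59.

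All 16 neutrophil and granulocyte precursor genes had differences above 0, against 52.8% of all genes. Of them, 0 reached an unadjusted p under 0.05, and their median was 0.39. It was 0.08 without immunized BALB/cByJ 3 and 0.98 within numbers 48 to 50. Their median response was 1.03 in BALB/cJ and 1.53 in BALB/cByJ, and the median gap between the colonies (BALB/cByJ minus BALB/cJ) was -0.64 in naïve and -0.20 in immunized mice. Elane, neutrophil elastase, was at -0.09, 0.76 and 1.32 in immunized BALB/cByJ, and its difference of 0.67 had an interval from -0.25 to 1.58. Of 19 immediate early genes, 14 lay above 0 and 6 (Fos, Egr1, Ier2, Nr4a1, Junb and Zfp36) reached an unadjusted p under 0.05, against 5.49% of all genes on the higher side, with 0 called. Fos, the AP-1 subunit, was at 0.43, 0.01 and 0.02 in naïve and 0.18, -0.50 and 0.21 in immunized BALB/cJ, but at -0.64, -1.11 and -0.88 in naïve and -0.01, -0.01 and 0.45 in immunized BALB/cByJ, a difference of 1.22 ± 0.28 (limma adjusted p = 0.44).

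The largest single values in each direction were those of a pigment cell gene and of a probe set shared by amylase genes. The cells or tissue behind the values below were not tested. The highest was Dct, the pigment enzyme dopachrome tautomerase, at 4.82 ± 2.31, with an interval that spanned 0: it was at 6.29, 6.26 and 2.27 in naïve BALB/cJ, 5.69, -0.18 and -0.08 in immunized BALB/cJ, and at 4.72 in 1 of the 6 BALB/cByJ arrays. Fabp7, a brain-type fatty acid binding protein, was 1.62, 1.75 and 0.93 in naïve and 1.22, -0.16 and -0.20 in immunized BALB/cJ, and -1.56, -1.32 and -1.48 in naïve and 0.16, 0.22 and -0.40 in immunized BALB/cByJ, for a difference of 2.60 ± 0.47 (limma adjusted p = 0.356). Pcdh12, Foxs1, Peg3, Ccn1 and Fermt2, named for their p among genes over 2-fold, had differences between 1.01 and 1.47, with naïve BALB/cJ the highest group in each. Of 13 stromal and endothelial genes, 11 lay above 0 and 4 (Pdgfrb, Col1a1, Col1a2 and Des) reached an unadjusted p under 0.05, where 5.49% of all genes did so on the higher side. The list had a median of 0.29 and 0 called genes.

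At the other end, a probe set shared by amylase genes was at 8.06, 4.66 and 3.29 in naïve BALB/cByJ and between -0.22 and 0.30 on the other 9 arrays, for a difference of -5.30 ± 1.15. Of 18 other pancreas genes, 17 lay below 0, where 8584 of all 18193 genes did. The pancreas median was -0.87, and it was -0.29 without naïve BALB/cByJ 1. In Mageb16, of the melanoma antigen family, the arrays were at -1.05, -1.06 and -0.53 in naïve BALB/cJ, 1.21, 0.69 and 0.74 in naïve BALB/cByJ and between -0.53 and 0.44 in the immunized mice, a difference of -1.70 ± 0.31 (limma adjusted p = 0.356). Endod1, an endonuclease domain gene with 5 of 5 probe sets below 0, was at -1.05 ± 0.22. Smox, spermine oxidase, at -1.30 (-0.52 in its second probe set), and Pheta2, at -1.11, had naïve BALB/cByJ as the highest group and naïve BALB/cJ as the lowest. In others the value rested mainly on 1 probe set. Btg1 was at -1.22 in 1 probe set and at -0.27 and 0.05 in the other two, Ncoa7 at -1.18 and -0.08, and Mpp1 at -1.01 and -0.21. Fmo2 differed from these: its 5 probe sets all lay below 0, from -1.07 to -0.18, and 3 had an unadjusted p under 0.05.

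**Figure D5:**
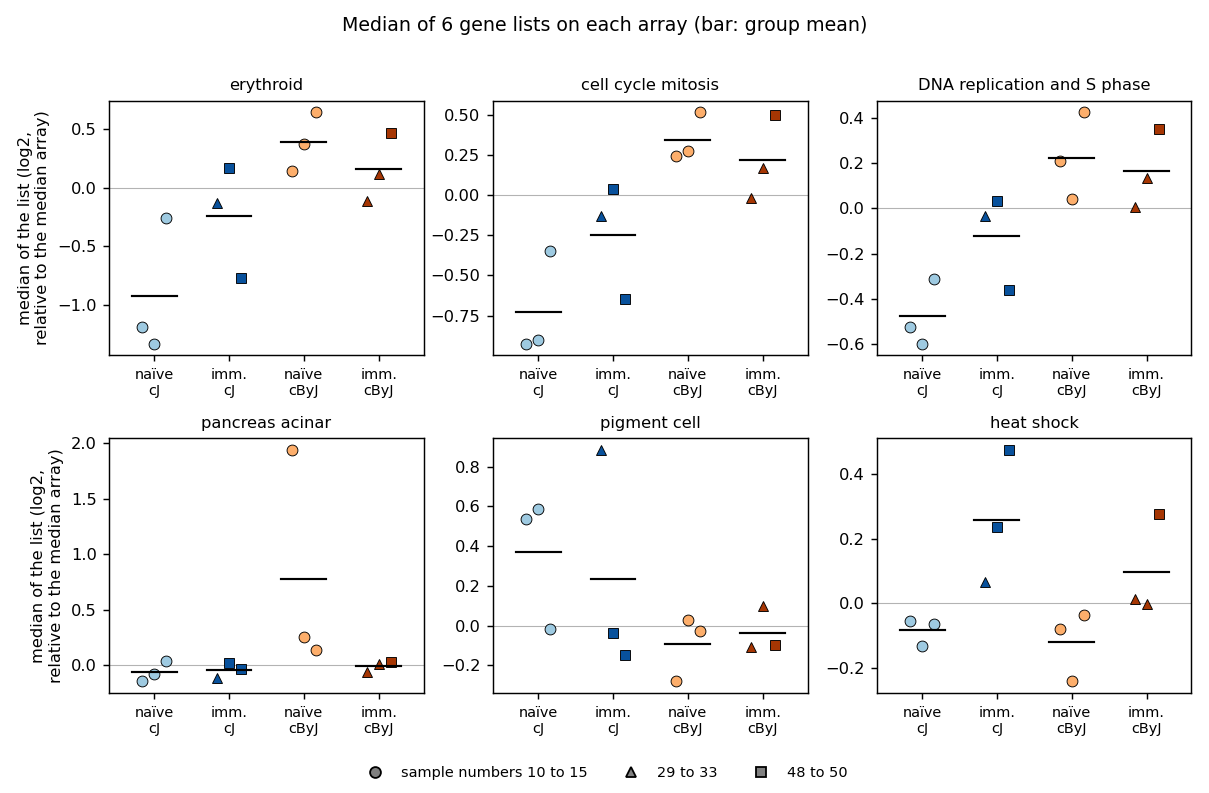
Median of the erythroid, mitosis, S phase, pancreas, pigment cell and heat shock lists on each of the 12 arrays (log2, relative to the median array), by group, with the group mean as a bar and the run of sample numbers as the symbol. The erythroid median is lowest in naïve BALB/cJ, down to -1.33, and the pancreas median highest in 1 naïve BALB/cByJ array, at 1.94.

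Several other lists had medians within 0.10 of 0. Ribosomal protein genes had a median of 0.03, respiratory chain genes -0.01, megakaryocyte genes 0.10, natural killer genes -0.01 and macrophage genes 0.01. Type I interferon genes were farther from 0 and had a median of -0.21, with 15 of 17 below 0 and 0 at an unadjusted p under 0.05. Heat shock genes had a median of -0.27, with 13 of 17 below 0 and 2, Hsp90aa1 and Hspa4l, lower at that level. Over all 18193 genes, 8584 lay below 0 and 3.19% were lower at that level.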

How the data were processed

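Spleen RNA of 12 mice was hybridised to 12 arrays, 1 per mouse, and groups came from the labels. The deposited values are log2 signals that the authors made by robust multi-array average (RMA), with the median of each probe set over all arrays subtracted. The base of the logarithm is read from RMA's usual output. Raw signal, background and scan data were not used here. Control probe sets (64) were left out, and genes were named from the platform annotation (probe sets with several genes were not named as one).

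Each probe set was fitted in limma 3.58.1 (R 4.3.3) with 4 group means, 8 residual and 4.50 prior degrees of freedom, and the difference of responses was tested 2-sided with Benjamini-Hochberg adjustment over all 45037. Gene-level values are means over probe sets. The 12 genes per direction with the smallest p among those over 1 (log2), 6 cytokines and the 3 leading members of each list with a median over 0.3 were named. Other genes were named after their values were seen. The method was tested on simulated data. The members and lists were chosen with earlier results of these data known. The number of arrays, 3 per group, limits the precision. Alternatives changed the normalization, moderation, weights, probe sets, replicate block, run of sample numbers and arrays, 1 at a time.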

Additional observations from a re-analysis of the deposited data

Results flagged for a closer look

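In 4 of the genes named by rule, the immunized arrays lay apart from the naïve arrays in opposite directions in the colonies. In all, 400 of 45037 probe sets (0.888%) did so. None of the 4 passed the test of the difference across all probe sets. Ccn1, a matricellular protein, had a difference of 1.09 (BALB/cJ -0.60, BALB/cByJ 0.48). Ccnjl, a cyclin J-like gene, had 1.00 (-0.57 and 0.44), with 2 of its 3 probe sets in this direction. Endod1 had -1.05 (0.46 and -0.58), with 5 of 5 probe sets in this direction. Igll1, a surrogate light chain of B cell precursors, had -0.41 (0.30 and -0.10) on 1 of 2 probe sets.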

How the results depend on the processing

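The count of called probe sets was 0, and stayed 0 with the array medians subtracted, with the unmoderated analysis, with trend and robust moderation, with array weights, with no s, x or a probe sets, at gene level, against a fold of 1.2, with the erythroid covariate and without the 4 pigment arrays. It was 2 after quantile normalization again (an amylase probe set and Fabp7), 6 with the run of sample numbers as a term (2 of Dbp, Neil1, Foxs1, Fabp7 and a probe set without a gene name), 9 within immunized arrays 29 to 33, 3 within 48 to 50, and 13 without the 4 arrays with high pancreas or heat shock genes. Each of these last 3 fits leaves a group with 1 array (immunized BALB/cJ 1, immunized BALB/cByJ 3 and immunized BALB/cJ 1), which is assumed to vary like the other groups. The fit without the pancreas and heat shock arrays is the fit within 29 to 33 with naïve BALB/cByJ 1 also left out. Leaving out 1 array gave 0 to 10, with 10 without immunized BALB/cJ 1. The cause was not tested. At an unadjusted p under 0.05 the count was 6765 with array weights, 1580 at gene level, 436 against a fold of 1.2, 1193 without the pigment arrays, and 2385 to 5312 when 1 array was left out. The labels do not say whether replicate numbers pair the samples. Residual correlations of same-numbered arrays ran from -0.29 to 0.37, with 9 of 18 over 0.1, and those of other-numbered arrays from -0.42 to 0.52. Residuals from groups of 3 arrays cannot decide whether the numbers pair samples. A replicate block called 0 and gave 4011 at the unadjusted level, against 3417 without it. Over 2420 values of 87 named genes, 2387 kept their direction and their side of the threshold, 11 came past it and 22 changed sign, in 6 genes with small differences. Il2 was -0.17 within 48 to 50, -0.047 without the pigment arrays, and -0.028 to 0.27 with 1 array left out. Il6 was -0.011 after quantile normalization again, -0.056 without the pigment arrays and -0.062 to 0.13 with 1 array left out. Ifng was 0.019 with array weights, 0.14 within 29 to 33 and 0.30 without the pancreas and heat shock arrays. Cry1 was 0.028, 0.012 and 0.044 under the same 3, and -0.12 to 0.024 with 1 array left out. Per1 was -0.22 to 0.29 with 1 array left out, and Bhlhe40 -0.097 with the erythroid covariate and -0.073 without the pigment arrays. Of 837 list medians, 84 moved by more than the spread between arrays. The planned filter on dim probe sets was not run, since the deposited values hold no signal level. The 3 alternatives with the erythroid covariate, without the pancreas and heat shock arrays, and without the pigment arrays were chosen after seeing the data.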
